A study of Mus musculus with 15 samples.

Results

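DNA topoisomerases and the enzymes that free them from DNA were described from 8 of the 21878 genes in the deposited table. They were taken by gene symbol: the topoisomerases Top1, Top1mt, Top2a, Top2b, Top3a and Top3b and the tyrosyl-DNA phosphodiesterases Tdp1 and Tdp2, 8 members in all, each found once in the table. RNA was measured by poly(A) RNA sequencing in livers of male C57BL/6J mice, 8 weeks old and otherwise healthy, taken 1 day after a single intraperitoneal injection. The saline group had 5 libraries. The cisplatin group had 5 libraries from mice given 10 mg per kg body weight, from a stock of 1 mg per mL in saline, and the doxorubicin group had 5 from mice given 10 mg per kg, from a stock of 2 mg per mL in sterile water. The vehicle of doxorubicin thus differed from that of the controls, and each drug was given at 1 dose and its effect seen at 1 time.

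Topoisomerases relax and untangle DNA by cutting it and joining it again, and during the cut the enzyme is held to the DNA end through a tyrosine. Type II enzymes cut both strands of the helix and pass another helix through the gap, type IB enzymes cut a strand and let it swivel, and type IA enzymes pass a strand through a cut in another. Drugs such as doxorubicin hold type II enzymes in the cut state, cisplatin crosslinks DNA bases instead, and the phosphodiesterases clip the trapped protein from the end: TDP1 acts mainly on the 3′ tyrosine links left by TOP1, and TDP2 mainly on the 5′ links left by TOP2.

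The values were FPKM, counts of sequenced fragments made comparable across gene lengths and read depths, and tests were run on log2(FPKM + 1) in the 10552 genes that reached 1 FPKM in 5 or more of the 15 libraries. The number of reads assigned to genes, recovered from the steps between FPKM values, was 27565957 to 34700317 per saline library, 25256043 to 31024726 per cisplatin library and 37603993 to 50727121 per doxorubicin library, so the doxorubicin libraries were the deepest. Saline 2 lay outside the range of the other saline libraries in 73.0% of tested genes, where chance gives 40%. By this measure the unnumbered doxorubicin library was at 49.7%, below cisplatin 4 at 57.0% and cisplatin 2 at 52.0%. The last doxorubicin column carries a number found in no sample title, and it is called here the unnumbered doxorubicin library; it is set apart for its label and because it was at least 2-fold above every other doxorubicin library in 83 genes, where the same count was 145 for saline 2 and 5 to 15 for the remaining libraries within their groups. Results are therefore given with and without these libraries wherever that changed a call. The p-values set the difference between group means against the spread between libraries within the groups, estimated over all 3 groups.

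In saline livers Top1mt was the most abundant member and Top2a the least. Mean levels were 18.9 ± 0.822 FPKM for Top1mt, 13.6 ± 3.60 for Top3b, 11.3 ± 3.03 for Tdp2 and 9.61 ± 1.43 for Top1 (SD, n = 5 each). Below them came Top2b at 7.35 ± 0.992 FPKM, Top3a at 2.60 ± 0.665, Tdp1 at 1.15 ± 0.223 and Top2a at 0.118 ± 0.0507. In this order the ranges of neighbours overlapped from Top1mt down to Top2b, and the ranges of Top2b, Top3a, Tdp1 and Top2a lay apart from each other. Among 16384 genes above 0 FPKM after saline, Top1mt stood at percentile 82.7, Top2b at 66.2, Tdp1 at 38.1 and Top2a at 19.3. All levels are per length, but the gene lengths behind them, recovered from the values, were 1910 bases for Top1mt and 5633 for Top2b, both shorter than the merged exons of these genes in GENCODE M21.

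**Figure D1:**
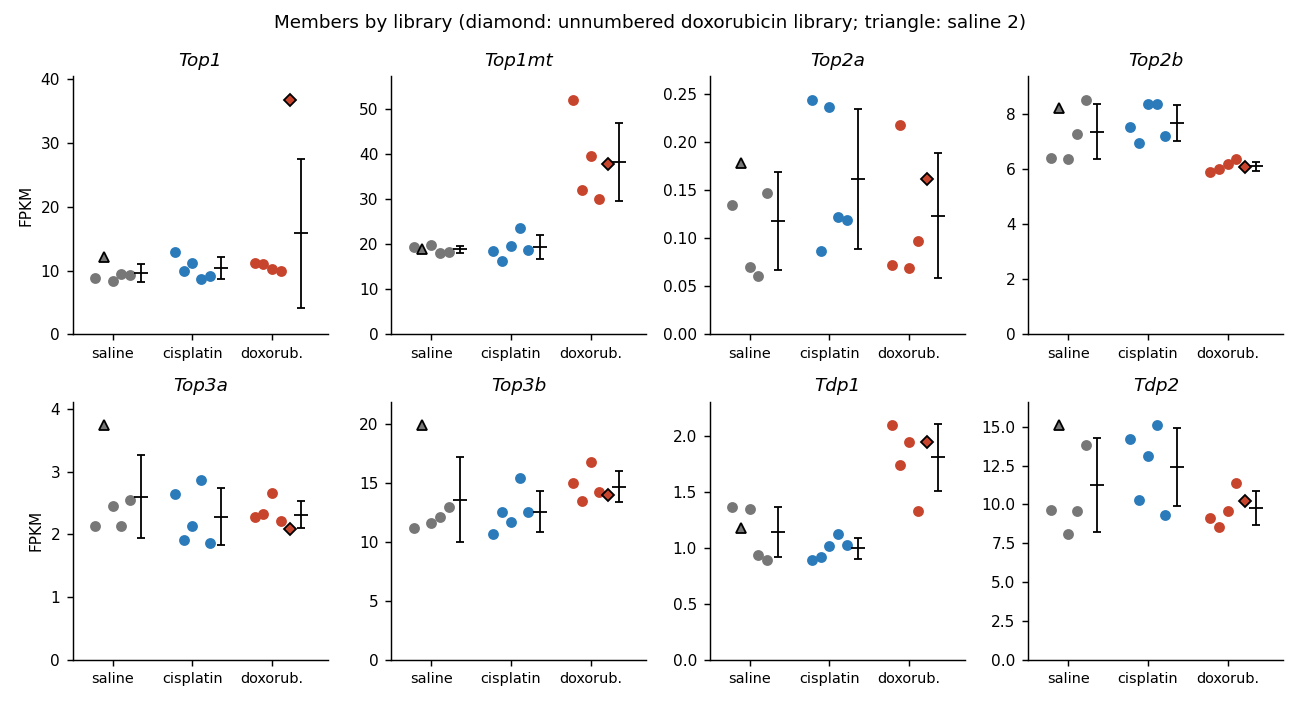
FPKM of each member in every library, 1 panel per gene with a linear axis from 0, and the mean ± SD of each group (n = 5) to its right. Top1mt and Tdp1 were higher after doxorubicin, Top2b sat lowest there, and the diamond of the unnumbered doxorubicin library stands alone for Top1 at 36.7 FPKM.

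After cisplatin no tested member passed the threshold (limma adjusted p under 0.05): 0 of 7 rose and 0 fell. By that adjusted threshold 11.1% of all tested genes were called, 6.08% upward and the rest downward. At an unadjusted p under 0.05 also 0 of 7 rose and 0 fell. The share of all tested genes at an unadjusted p under 0.05 is not given here. The cisplatin and saline ranges of all 8 members overlapped, while those of 9.71% of tested genes did not, 5.33% higher and 4.39% lower after cisplatin. Between doxorubicin and saline 2 of 7 rose, Top1mt and Tdp1, and 0 fell (1 fell at an unadjusted p under 0.05), against a background of 31.6% of tested genes called, 14.4% upward and 17.2% downward. Ranges did not overlap for Top1mt and Top2b, 2 of 7, as for 22.0% of tested genes. Doxorubicin exceeded cisplatin in the same 2 members and was lower in Top2b, with 20.4% of genes called, 9% upward and 11.4% downward, and for these 3 of 7 the ranges did not overlap, as for 16.3% of tested genes. Top2a did not reach 1 FPKM in any library, so it was tested only in a fit without that filter, where the shares called were 6.69%, 20.5% and 13.0% for cisplatin against saline, doxorubicin against saline and doxorubicin against cisplatin. The comparisons share their samples: those with saline share the 5 saline libraries, and those with doxorubicin share the 5 doxorubicin libraries.

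**Figure D2:**
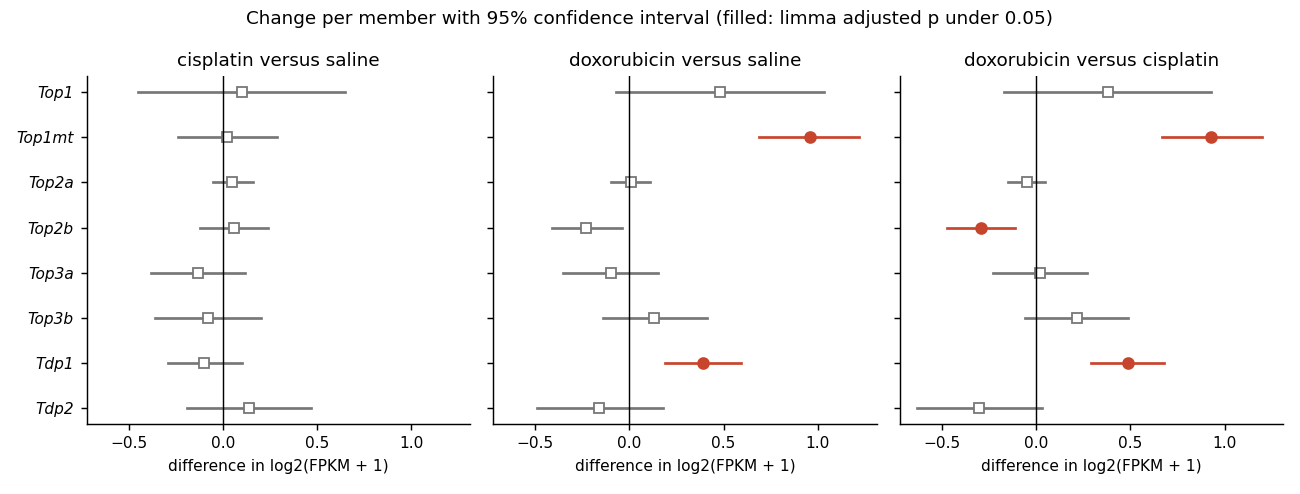
Difference in log2(FPKM + 1) of each member in 3 comparisons, with its 95% confidence interval; filled points passed a limma adjusted p of 0.05, and Top2a comes from the fit without a filter. Top1mt is the farthest to the right in both comparisons with doxorubicin, at 0.96 and 0.93, and every interval for cisplatin against saline crosses 0.

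Top2a encodes topoisomerase IIα, the form of dividing cells, which separates sister chromatids, and Top2b encodes topoisomerase IIβ, the form of resting cells, linked to transcription. Both proteins are targets of doxorubicin. The start regions of these genes are shown because the levels of the pair were so far apart in these livers. They are the 250 bases before and 50 after the RefSeq start (GRCm38.p6), read 5′ to 3′ on the gene's strand, with CCAAT or its other-strand form ATTGG in capitals; Top2a is at chr11:99024140-99024439, minus strand, and Top2b at chr14:16364956-16365255, plus strand.
Top2a: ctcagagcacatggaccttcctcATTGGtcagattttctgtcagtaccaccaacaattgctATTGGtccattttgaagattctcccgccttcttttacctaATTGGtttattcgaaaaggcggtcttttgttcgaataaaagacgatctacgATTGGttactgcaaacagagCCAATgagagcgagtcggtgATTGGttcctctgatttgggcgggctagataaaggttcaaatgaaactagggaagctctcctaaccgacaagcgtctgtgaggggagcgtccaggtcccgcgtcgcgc
Top2b: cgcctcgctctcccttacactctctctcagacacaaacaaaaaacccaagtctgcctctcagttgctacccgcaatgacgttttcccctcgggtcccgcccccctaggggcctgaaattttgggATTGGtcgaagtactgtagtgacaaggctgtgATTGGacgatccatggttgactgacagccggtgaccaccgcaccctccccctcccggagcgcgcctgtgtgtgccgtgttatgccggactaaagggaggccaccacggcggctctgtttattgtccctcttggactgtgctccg
The Top2a window held 6 CCAAT runs counted on both strands, and the Top2b window held 2. Of 32851 such windows of mouse genes, 37.4% held at least 1, 11.7% at least 2 and 0.0791% at least 6. The CHR element TTTGAA (or TTCAAA), which together with CCAAT marks many cell cycle promoters, occurred 2 times in the Top2a window and 0 times in that of Top2b, and in 17.9% of all windows. The GC content was 47.7% for Top2a and 58.3% for Top2b. A run of letters is no evidence of a bound factor.

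Top2a was barely detected in any group. It was 0.135, 0.178, 0.0700, 0.0611 and 0.147 FPKM in saline 1 to 5, which corresponds to 20, 26, 10, 11 and 23 reads. After cisplatin it was 0.244, 0.0870, 0.237, 0.122 and 0.119 FPKM, and after doxorubicin 0.0723, 0.218, 0.0688 and 0.0975 in libraries 1 to 4 and 0.162 in the unnumbered one. The groups overlapped throughout, and within each group the highest library was more than 2 times the lowest. The differences in log2(FPKM + 1) were 0.05 ± 0.05 for cisplatin against saline (SE, adjusted p = 0.605) and 0.01 ± 0.05 for doxorubicin against saline (adjusted p = 0.946), in the fit without a filter. At 10 to 50 reads per library a change in Top2a was not detectable at this depth unless large, and the added 1 FPKM shrinks fold changes at such levels. In GENCODE M21 its gene, on chromosome 11 from 98992943 to 99024189, also shares 122 exon bases with a small nucleolar RNA gene on the same strand. The merged exons there are 9013 bases and the length behind the FPKM was 5184, so whether the shared bases were counted was not tested.

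The low level of Top2a stood beside low levels of other transcripts of dividing cells. Of 20 listed transcripts of S, G2 and M phase, 16 averaged under 1 FPKM and the median of the means was 0.362 FPKM. The proliferation antigen Mki67 was 0.162 ± 0.0562 FPKM in saline, 0.134 ± 0.0356 in cisplatin and 0.0854 ± 0.0303 in doxorubicin livers (SD of 5 libraries), and the mitotic kinase Cdk1 was 0.540 ± 0.142, 0.317 ± 0.0841 and 0.235 ± 0.0402. Not every listed gene had its highest mean in saline livers: the survivin gene Birc5 was 0.946 ± 0.276, 1.59 ± 0.875 and 0.971 ± 0.156 FPKM in the same order of groups, and the replication helicase subunit Mcm5 was 0.311 ± 0.139, 0.253 ± 0.165 and 0.380 ± 0.0794. These 4 genes were chosen after their values were seen. Only 4 of the 20 were tested. Rrm2, the small subunit of ribonucleotide reductase, fell in all 3 comparisons, from 2.12 ± 0.761 FPKM after saline to 1.01 ± 0.365 after cisplatin (adjusted p = 0.0135) and 0.248 ± 0.111 after doxorubicin (adjusted p = 9.42e-06), and doxorubicin was also below cisplatin (adjusted p = 0.00459). The mitotic kinase Aurka fell from 1.71 ± 0.241 FPKM after saline to 1.18 ± 0.0674 after doxorubicin (adjusted p = 0.0146). That call held in 24 of 25 alternatives and ended with replicate numbers as a block and the unnumbered library left out (0.0691). In whole liver, fewer cells of a type and less RNA per cell cannot be told apart.

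Top2b was lower after doxorubicin than in every library of the other groups. It was 6.39, 8.21, 6.38, 7.26 and 8.51 FPKM in saline 1 to 5 and 7.54, 6.94, 8.37, 8.36 and 7.19 in cisplatin 1 to 5. In doxorubicin 1 to 4 it was 5.89, 6.02, 6.17 and 6.35 FPKM, and 6.07 in the unnumbered library. The doxorubicin range therefore ended at 6.35 FPKM, just below the lowest saline value of 6.38, and its libraries were close together, with an SD of 2.80% of the mean against 13.5% after saline and 8.64% after cisplatin. Groups that do not overlap in this direction were seen in 11.5% of tested genes for doxorubicin against saline and in 9.45% for doxorubicin against cisplatin.

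The mean of Top2b was 6.10 ± 0.171 FPKM after doxorubicin, 0.794 of the 7.68 ± 0.664 after cisplatin (SD, n = 5 each), and the fall of -0.29 ± 0.09 passed the threshold (SE, adjusted p = 0.0255). That call ended without cisplatin 3 (adjusted p = 0.0625), cisplatin 4 (0.0605), doxorubicin 1 (0.0510) or doxorubicin 2 (0.0524). It also ended with replicate numbers as a block and the unnumbered library left out (0.137). Against saline the difference of -0.23 ± 0.09 missed the threshold (adjusted p = 0.0549, 95% confidence interval -0.41 to -0.04). It passed without saline 1 (0.0337) or saline 3 (0.0329), with a stricter filter (0.0481), on the TPM scale (0.0406) and after quantile normalization (0.0374). The difference passed only in these 5 alternatives and stayed uncalled in 21. With 1 library left out its adjusted p reached 0.147. It was 0.141 without saline 2 and the unnumbered library together, and 0.197 with replicate numbers as a block. Cisplatin and saline livers differed by 0.06 ± 0.09 (adjusted p = 0.709). Top2b lies on chromosome 14 from 16365179 to 16435462, plus strand. By the merged exons of GENCODE M21 it shares 1793 exon bases with Rarb, a retinoic acid receptor gene on the other strand at 0.562 to 1.91 FPKM. Reads of such a pair are separable only where counting used strand, which is not given in the sources used here. Those merged exons are 14613 bases and the length behind the FPKM was 5633, so whether the shared bases were counted was not tested.

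Per length, Top2b exceeded Top2a in every library, from 27.6-fold to 119-fold. The mean ratio was 72.2 ± 31.7 in saline, 54.9 ± 21.1 in cisplatin and 60.3 ± 27.1 in doxorubicin livers (SD of 5 libraries), and the 3 groups overlapped.

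Among the type IB enzymes the mitochondrial form had the largest rise of the 8 members after doxorubicin. Top1mt is a nuclear gene whose protein works in mitochondria, where it relaxes mitochondrial DNA. It was 19.5, 18.9, 19.9, 18.0 and 18.2 FPKM in saline 1 to 5 and 18.4, 16.3, 19.6, 23.6 and 18.8 in cisplatin 1 to 5. In doxorubicin 1 to 4 it was 52.0, 32.0, 39.5 and 30.0 FPKM, with 37.7 in the unnumbered library. The lowest doxorubicin library was above the highest of both other groups, doxorubicin 1 was the highest of all, and saline libraries lay within 2 FPKM of each other.

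The mean of Top1mt was 38.2 ± 8.63 FPKM after doxorubicin, 2.02 times the 18.9 ± 0.822 after saline (SD, n = 5 each). The rise of 0.96 ± 0.13 on the log2 scale (SE, adjusted p = 3.03e-05, 95% confidence interval 0.69 to 1.22) was matched or exceeded by 2.54% of tested genes. Doxorubicin was above cisplatin by 0.93 ± 0.13 (adjusted p = 8.27e-05). Groups that do not overlap in this direction made up 10.5% of tested genes for doxorubicin against saline and 6.90% for doxorubicin against cisplatin. Without saline 2 and the unnumbered doxorubicin library the rises were 0.95 (adjusted p = 0.000158) and 0.93 (0.000208). Cisplatin and saline differed by 0.02 ± 0.13 (adjusted p = 0.934, 95% confidence interval -0.24 to 0.29). Top1mt lies on chromosome 15 from 75657035 to 75678800, minus strand. In GENCODE M21, 95 of its exon bases overlap an antisense gene that is not in the table, and whether they were counted was not tested.

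Top1, the nuclear type IB enzyme and the target of camptothecins, was at 8.34 to 12.9 FPKM in 14 libraries and higher in the unnumbered doxorubicin library. It was 8.88, 12.1, 8.34, 9.42 and 9.37 FPKM in saline 1 to 5 and 12.9, 9.86, 11.2, 8.66 and 9.18 in cisplatin 1 to 5. Doxorubicin 1 to 4 had 11.2, 11.1, 10.3 and 9.86 FPKM, and the unnumbered library had 36.7, which is 3.28 times the next highest in its group. Within saline, library 2 was the highest. With all libraries the doxorubicin mean was 15.8 ± 11.7 FPKM (SD, n = 5) and its difference from saline 0.48 ± 0.26 (SE, adjusted p = 0.178). Without the unnumbered library the mean was 10.6 ± 0.635 FPKM (n = 4) and the difference 0.14 (adjusted p = 0.399). The difference from cisplatin went from 0.38 ± 0.26 (adjusted p = 0.343) to 0.04 (adjusted p = 0.855) in the same way. Cisplatin and saline differed by 0.10 ± 0.26 (adjusted p = 0.859). The unnumbered library enters this SE through the spread shared by the 3 groups. Without that library the difference was again 0.10 (adjusted p = 0.620). Top1 lies on chromosome 2 from 160645888 to 160722764, plus strand.

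The type IA enzymes showed no call in any comparison with all libraries in the fit. Top3a encodes topoisomerase IIIα, which separates recombined DNA strands with the helicase BLM and also has a mitochondrial form. It was 2.13, 3.74, 2.45, 2.13 and 2.55 FPKM in saline 1 to 5, 2.65, 1.91, 2.13, 2.87 and 1.86 in cisplatin 1 to 5, and 2.28, 2.32, 2.66, 2.21 and, in the unnumbered library, 2.09 after doxorubicin. The groups overlapped, and saline 2 was the highest library of all. The differences were -0.13 ± 0.12 for cisplatin against saline (SE, adjusted p = 0.550), -0.10 ± 0.12 for doxorubicin against saline (0.536) and 0.02 ± 0.12 for doxorubicin against cisplatin (0.925).

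Top3b encodes topoisomerase IIIβ, which acts on RNA as well as DNA together with the scaffold TDRD3. Its levels were 11.2, 19.9, 11.6, 12.1 and 13.0 FPKM in saline 1 to 5 and 10.7, 12.5, 11.7, 15.4 and 12.5 in cisplatin 1 to 5. Doxorubicin 1 to 4 had 15, 13.5, 16.8 and 14.2 FPKM, and the unnumbered library had 14.0. Every doxorubicin library was above every saline library other than saline 2, which was the highest of all 15. With all libraries the difference between doxorubicin and saline was 0.13 ± 0.13 (SE, adjusted p = 0.469). Without saline 2, whose removal lowers the saline mean from 13.6 ± 3.60 to 12 ± 0.778 FPKM (SD, n = 4), it was 0.27 (adjusted p = 0.0363), and without saline 2 and the unnumbered library it was 0.29 (adjusted p = 0.0421). Doxorubicin and cisplatin differed by 0.22 ± 0.13 (adjusted p = 0.281), and cisplatin and saline by -0.08 ± 0.13 (adjusted p = 0.749). In GENCODE M21 Top3b, on chromosome 16 from 16870736 to 16892990, shares 108 exon bases with Vpreb1 on the other strand, which was 0.0914 to 0.606 FPKM. The merged exons there are 8400 bases and the length behind the FPKM was 2994, so whether the shared bases were counted was not tested.

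Of the phosphodiesterases Tdp1 rose after doxorubicin and Tdp2 did not pass the threshold. The start region of Tdp1 is shown because it is the phosphodiesterase with a call (RefSeq, GRCm38.p6, chr12:99884268-99884567, plus strand, the same window), with the GC box GGGCGG in capitals.
Tdp1: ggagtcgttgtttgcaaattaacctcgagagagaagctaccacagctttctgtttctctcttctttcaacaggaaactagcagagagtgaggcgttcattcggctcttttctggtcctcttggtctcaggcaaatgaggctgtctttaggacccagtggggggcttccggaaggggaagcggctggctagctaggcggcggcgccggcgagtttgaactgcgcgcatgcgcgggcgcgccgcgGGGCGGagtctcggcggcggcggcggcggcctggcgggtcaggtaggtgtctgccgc
This window held 1 GGGCGG or CCGCCC, which 35.7% of all windows hold, 1 TTTGAA or TTCAAA and 0 CCAAT or ATTGG, with a GC content of 62.0%. The window of Top1 held 3 of the GC box and 0 CCAAT, and that of Top3b held 1 CCAAT.

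Tdp1 was low in all livers but measured by more reads than Top2a, 77 to 121 per library without doxorubicin and 155 to 329 with it. It was 1.37, 1.18, 1.35, 0.940 and 0.891 FPKM in saline 1 to 5 and 0.897, 0.916, 1.02, 1.13 and 1.03 in cisplatin 1 to 5. After doxorubicin it was 2.10, 1.74, 1.95 and 1.33 FPKM in libraries 1 to 4 and 1.95 in the unnumbered one. Doxorubicin 4 was the lowest of its group and lay just under saline 1 and 3, while all 5 doxorubicin libraries were above all 5 cisplatin libraries, as was the case for 6.90% of tested genes.

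The mean of Tdp1 went up from 1.15 ± 0.223 FPKM after saline to 1.81 ± 0.298 after doxorubicin (SD, n = 5 each), 1.58 times as much. On the log2(FPKM + 1) scale, which understates changes at this level, the rise was 0.39 ± 0.09 (SE, adjusted p = 0.00414, 95% confidence interval 0.19 to 0.59), and 10.8% of tested genes rose by as much or more. Doxorubicin exceeded cisplatin, at 0.998 ± 0.0931 FPKM, by 0.49 ± 0.09 (adjusted p = 0.00134), or 1.82 times in FPKM. Both calls held in every alternative in which Tdp1 was tested, with 0.38 (adjusted p = 0.0136) and 0.47 (adjusted p = 0.00360) without saline 2 and the unnumbered library. Cisplatin and saline differed by -0.10 ± 0.09 (adjusted p = 0.554). Tdp1 reached 1 FPKM in 3 saline, 3 cisplatin and 5 doxorubicin libraries, so it met the filter with and without the doxorubicin group. It lies on chromosome 12 from 99884517 to 99955219.

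Tdp2, whose protein also takes part in signaling, was 9.67, 15.1, 8.13, 9.55 and 13.8 FPKM in saline 1 to 5 and 14.2, 10.3, 13.1, 15.1 and 9.31 in cisplatin 1 to 5. Doxorubicin 1 to 4 had 9.12, 8.57, 9.59 and 11.4 FPKM, and the unnumbered library had 10.2. The saline and cisplatin libraries spread from about 8 to 15 FPKM, and the doxorubicin libraries lay within the lower part of that range. The differences were -0.16 ± 0.16 for doxorubicin against saline (SE, adjusted p = 0.479, 95% confidence interval -0.49 to 0.18), -0.30 ± 0.16 for doxorubicin against cisplatin (0.204, interval -0.63 to 0.03) and 0.14 ± 0.16 for cisplatin against saline (0.620). The ratio of Tdp2 to Top2b, the enzyme whose links it clips, was 1.51 ± 0.233 in saline, 1.61 ± 0.240 in cisplatin and 1.60 ± 0.140 in doxorubicin livers (SD of 5 libraries), with overlapping ranges. Tdp2 lies on chromosome 13 from 24831679 to 24842153.

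The make-up of the topoisomerase transcripts was described by each gene's share of their sum, without a test. The summed FPKM of the 6 genes was 48.3 to 62.9 after saline, 47.6 to 59.0 after cisplatin and 62.7 to 96.8 after doxorubicin. Top1mt took 36.6 ± 4.43% of this sum in saline, 36.8 ± 2.26% in cisplatin and 49.7 ± 7.68% in doxorubicin livers (SD of 5 libraries), with ranges that overlapped between saline and doxorubicin. The share of Top2b was 13.0 to 16.4% after saline, 14.2 to 15.7% after cisplatin and 6.27 to 10.1% after doxorubicin. The doxorubicin range lay below the other two, which overlapped, and since shares sum to a whole a higher Top1mt or Top1 lowers it. Top1 made up 38.0% of the sum in the unnumbered library and 13.0% in the lowest doxorubicin library, and Top2a stayed below 0.5% in all 15. Top1mt exceeded Top1 by 2.00 ± 0.312 times after saline and 3.09 ± 1.35 times after doxorubicin, with 1.03 in the unnumbered library.

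**Figure D3:**
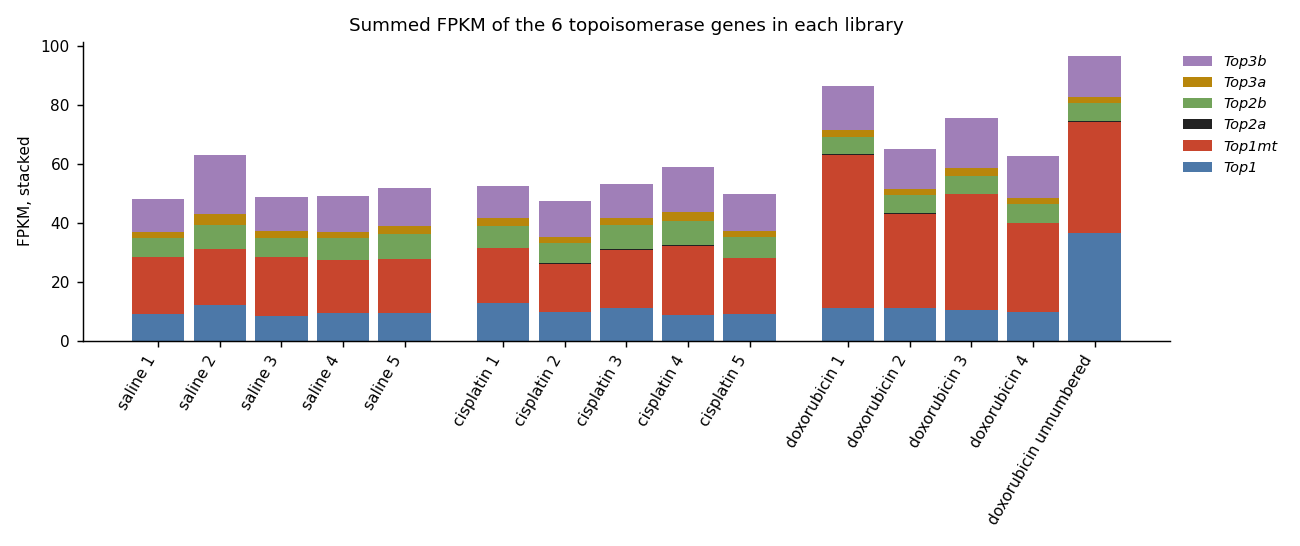
Stacked FPKM of the 6 topoisomerase genes in each of the 15 libraries. The Top1mt segment is taller in all 5 doxorubicin libraries, and the Top1 segment is tall in the unnumbered library, whose sum of 96.8 FPKM is the highest.

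Markers of several cell types moved along with doxorubicin. The summed FPKM of 14 neutrophil and monocyte markers was 9.79 to 13.1 after saline, 8.24 to 14.1 after cisplatin and 37.2 to 55.5 after doxorubicin. Of these, 6 were tested and 6 rose against saline, where 14.4% of all tested genes rose. A marker could pass the filter through the doxorubicin group alone, so this count is not independent of the rise. Ly6c2, for example, averaged 0.390 ± 0.195 FPKM after saline and 3.70 ± 2.28 after doxorubicin. For 7 markers of Kupffer cells, the resident macrophages of liver, the sums were 42.8 to 65.8, 43.2 to 57.7 and 86.6 to 135. After doxorubicin 3 of 6 tested members rose and 0 fell, beside the same 14.4%. The 6 hepatocyte markers had the highest sums of any list, 53161 to 61022 FPKM after saline, 56192 to 60585 after cisplatin and 44808 to 55322 after doxorubicin. Of these 6, 0 rose and 2 fell after doxorubicin, where 17.2% of all tested genes fell. The transcription factor Hnf4a was 1 of the 2, from 168 ± 13.7 to 119 ± 13.3 FPKM (SD of 5 libraries, limma adjusted p = 0.000352). Erythroid markers summed to 321 to 524 FPKM after saline, 51.0 to 68.7 after cisplatin and 54.9 to 286 after doxorubicin. Of 7 tested, 0 rose and 4 fell after each drug. Of all tested genes 11.1% were called in either direction after cisplatin, and 17.2% fell after doxorubicin. An erythroid marker could pass the filter through the saline group alone, so these counts are not independent of the fall. Doxorubicin was above cisplatin in 3 of the 7 and below it in 0, where 20.4% of all tested genes were called in either direction. Sinusoidal endothelial markers summed to 52.3 to 78.7, 21.8 to 49.2 and 31.3 to 57.1, lymphocyte markers to 7.34 to 12.9, 6.74 to 8.30 and 5.58 to 7.79, and stellate markers to 54.1 to 79.7, 57.0 to 98.4 and 40.8 to 80.7. The part of these shifts in the changes of Top1mt, Tdp1 and Top2b was not tested, and the greater depth of the doxorubicin libraries cannot be told apart from the drug.

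Genes that act with the members were counted in lists, to be read beside the shares of all tested genes called, 11.1% for cisplatin against saline and 31.6% for doxorubicin against saline. Among partners in adduct repair, the proteases, unfoldases, nucleases and ligases that act on trapped topoisomerases, 16 of 18 were tested; 0 changed after cisplatin (1 at an unadjusted p under 0.05), and 0 rose and 3 fell after doxorubicin, where 17.2% of all tested genes fell. The median difference from saline after doxorubicin was -0.12, against -0.04 over all tested genes. Tex264, a cofactor that brings the unfoldase VCP to TOP1 adducts, fell from 46.5 ± 2.71 to 36.7 ± 2.63 FPKM (SD of 5 libraries; -0.33 ± 0.07, adjusted p = 0.00263) and was also below cisplatin (-0.36, adjusted p = 0.00230). Topors, a ligase of ubiquitin and SUMO named for its binding to TOP1, fell from 8.56 ± 1.19 to 6.42 ± 1.01 FPKM (adjusted p = 0.0129). The calls of both genes held in 26 of 26 alternatives. Sprtn, the protease that degrades proteins crosslinked to DNA, went from 5.77 ± 1.44 to 3.97 ± 0.597 FPKM (adjusted p = 0.0391), a call that held in 15 of 25 alternatives and ended without the unnumbered library (0.0918) or saline 2 (0.0849).

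Enzymes that finish the ends after the phosphodiesterases and repair single-strand breaks included 8 tested genes of 10. After cisplatin 0 changed, also at an unadjusted p under 0.05, and after doxorubicin 2 of 8 rose and 0 fell, beside 31.6% of all tested genes called and 14.4% upward. The list median was 0.13, against -0.04 over all tested genes. Fen1, the flap endonuclease, rose from 1.24 ± 0.325 to 2.43 ± 0.521 FPKM (SD of 5 libraries; 0.62 ± 0.13, adjusted p = 0.00171), in 25 of 25 alternatives. Polb, the gap-filling polymerase, rose by 0.22 ± 0.07 (adjusted p = 0.0343), a call that held in 17 of 26 alternatives and ended without the unnumbered library (0.0737).

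Non-homologous end joining, which seals double-strand breaks, had 9 tested genes of 10. The DNA-end-binding Ku80 gene Xrcc5 rose after both drugs, from 6.35 ± 0.538 FPKM after saline to 9.50 ± 1.11 after cisplatin (adjusted p = 0.00168) and 9.06 ± 0.990 after doxorubicin (adjusted p = 0.00128; SD, n = 5 each). Xrcc6, which encodes its partner Ku70, rose after cisplatin from 6.22 ± 0.984 to 8.36 ± 0.729 FPKM (adjusted p = 0.0190), a call that ended without cisplatin 3 (0.0601). Xrcc4, the scaffold of DNA ligase IV, fell after cisplatin from 4.19 ± 0.896 to 2.09 ± 0.338 FPKM (-0.74 ± 0.13, adjusted p = 0.00126) and was 4.64 ± 0.686 after doxorubicin, above cisplatin by 0.87 ± 0.13 (adjusted p = 0.000166). Of the 9, 2 rose and 1 fell after cisplatin, beside 11.1% of all tested genes called, and 1 rose and 0 fell after doxorubicin, beside 31.6%.

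Helicases and scaffolds that work with the type IA enzymes gave 9 tested genes of 10. Of the 9, 0 changed after cisplatin, also at an unadjusted p under 0.05, and after doxorubicin 1 rose and 3 fell, beside 31.6% of all tested genes called. The list median was -0.20, against -0.04 over all tested genes. Blm, the helicase partner of Top3a, went from 1.41 ± 0.557 to 0.686 ± 0.0843 FPKM (SD of 5 libraries; adjusted p = 0.0178), and Wrn, the Werner helicase, from 2.11 ± 0.419 to 1.5 ± 0.180 (adjusted p = 0.0212). Rmi1, which holds Blm and Top3a together, went from 5.73 ± 1.94 to 3.75 ± 0.173 FPKM (adjusted p = 0.0398), and the helicase Recql5 rose from 7.85 ± 2.03 to 10.4 ± 0.826 (adjusted p = 0.0305). The call of Blm held in 24 of 25 alternatives. That of Wrn held in 22 of 25, ending without doxorubicin 2 or doxorubicin 3. Those of Rmi1 (14 of 25) and Recql5 (19 of 26) ended without the unnumbered library (0.0719 and 0.0569). The call of Rmi1 also ended without saline 2 (0.0835). The count of 4 went to 2 without saline 3, doxorubicin 2, doxorubicin 4 or the unnumbered library, each left out alone, and to 1 without doxorubicin 3.

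All 12 listed genes of mitochondrial DNA maintenance, the setting in which Top1mt works, were tested. After cisplatin 0 changed (1 at an unadjusted p under 0.05). After doxorubicin 1 rose and 3 fell, 4 of 12, which is near the 31.6% of all tested genes called, and the list median was -0.11 against -0.04 over all tested genes. The count of 4 went to 2 without doxorubicin 2 or doxorubicin 4 and to 1 without the unnumbered library. Polg2, the accessory subunit of the mitochondrial DNA polymerase, fell from 5.01 ± 0.301 to 3.29 ± 0.353 FPKM (SD of 5 libraries; -0.49 ± 0.10, adjusted p = 0.00167), in 25 of 25 alternatives, and was also below cisplatin (-0.59, adjusted p = 0.000688). Tfb2m, a mitochondrial transcription factor, fell by 0.33 (adjusted p = 0.0244), the catalytic subunit Polg fell by 0.32 (0.0463) and the primase-polymerase Primpol rose by 0.39 (0.0235). These last calls ended without the unnumbered library, with adjusted p = 0.0642, 0.0895 and 0.0573. The call of Polg also ended without saline 2 (0.0998). Without the unnumbered library 1 gene of the list remained called.

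**Figure D4:**
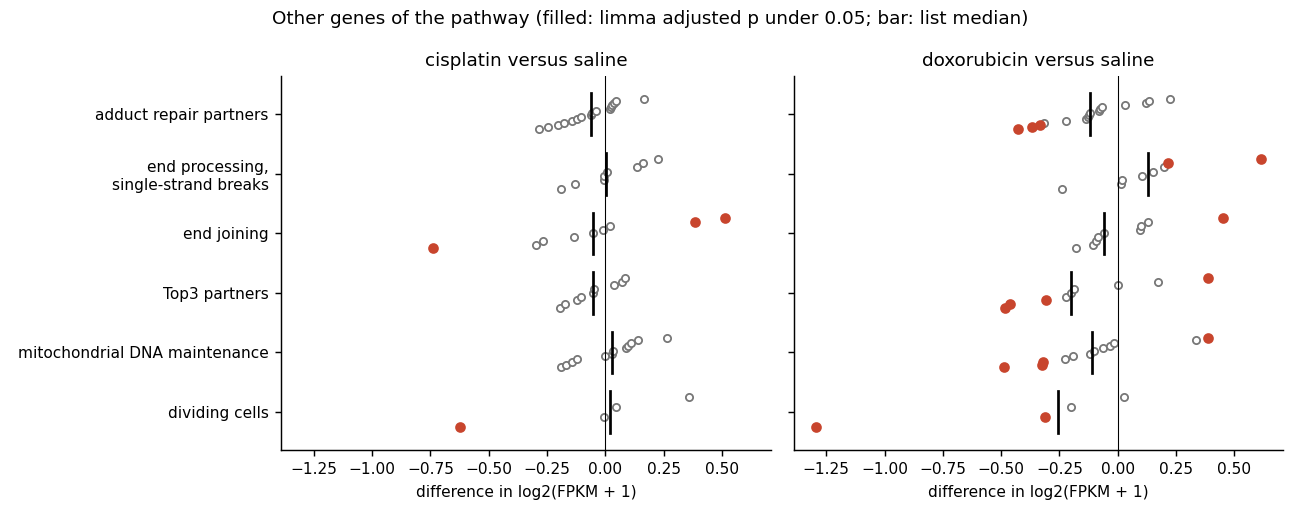
Difference in log2(FPKM + 1) from saline of each tested gene in 6 lists of related genes, after cisplatin on the left and doxorubicin on the right; filled points passed a limma adjusted p of 0.05 and the bar is the list median. Filled points lie on both sides of 0, and unfilled points outnumber filled ones in every list except dividing cells after doxorubicin. There 2 of 4 are filled, beside 31.6% of all tested genes called.

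The genes most like Top1, Top2a and Top2b across libraries were sought among 14716 genes by Pearson's r of log2(FPKM + 1) over 15 libraries, as a description only, since libraries share group, depth and composition. For Top2b they were Zbtb14 (r = 0.93), Acot4 (0.93) and Ccdc28b (0.92), with r = 0.92, 0.92 and 0.91 over the 14 libraries without the unnumbered one. Acot4, a peroxisomal acyl-CoA thioesterase, averaged 24.8 FPKM after saline, 25.1 after cisplatin and 11.7 in doxorubicin 1 to 4. For Top1 they were LOC108168323, Esf1 and Dnajc2, each with r = 0.95, and with 0.54, 0.54 and 0.68 once the unnumbered library was left out. That library had 13.1 FPKM of Esf1, against a mean of 4.01 in doxorubicin 1 to 4. For Top2a, at its few reads per library, they were Klrb1b (r = 0.87), Hkdc1 (0.83) and Zfp229 (0.82).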

How the data were processed

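Poly(A) RNA of 15 livers was sequenced in 3 groups of 5 libraries. The deposited table holds FPKM per gene, made by the authors; the submitters' processing notes name Trim Galore 0.4.1, HISAT2 2.0.1, featureCounts 1.4.6, edgeR and GRCm38 (mm10). The annotation release and the strand setting of the counting are not given in the sources used here. Columns were matched to samples through the labels; the last doxorubicin column bears a number of no sample title and was used as a doxorubicin library without a number.

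Values were used as log2(FPKM + 1). Genes that reached 1 FPKM in 5 or more of the 15 libraries were kept, and limma 3.58.1 (R 4.3.3; eBayes with trend and robust options) was fitted over all 3 groups at once, with no covariate. P-values were two-sided and Benjamini-Hochberg adjusted over all tested genes, with a threshold of 0.05. The pipeline was tested on simulated data. Top2a came from the same fit without the filter. Library totals and gene lengths were recovered from the steps between FPKM values; no count test was run, since the table holds FPKM.

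All 8 members were named; in each list, genes past the threshold could be named, at most 4 per direction and comparison, and for likeness the 3 genes with the highest r. The members and lists were chosen with earlier results of these data known. Alternatives were other pseudocounts (0.1 and 0.5), no filter, a stricter filter (mean of at least 5 FPKM), TPM, median-ratio and quantile scaling, eBayes without its options, only the 2 groups compared, replicate numbers as a block, and each library left out. One was added after seeing the data, leaving out saline 2 and the unnumbered doxorubicin library together. The labels name no pooling of mice; whether any step was shared between libraries is not given. Annotation came from GENCODE M21 and promoter windows from RefSeq (GRCm38.p6), matched by symbol for 5 of 8 members; those of Top1mt, Top3a and Tdp2 were not used here. Tables were handled with pandas 2.3.3 and numpy 2.4.6 in Python 3.11.15, and plots drawn with matplotlib 3.10.9.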

Additional observations from a re-analysis of the deposited data

Results flagged for a closer look

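Of 24 sets of 5 libraries tested with Dixon's criterion (8 members in 3 groups), 3 held a library far from the others of its group, where chance flags about 1 in 20. Top1 was 36.7 FPKM in the unnumbered doxorubicin library and at most 11.2 in doxorubicin 1 to 4. Top3a was 3.74 FPKM in saline 2 and at most 2.55 in the other saline libraries. Top3b was 19.9 FPKM in saline 2 and at most 13.0 in the other saline libraries.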

How the results depend on the processing

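The calls of Top1mt and Tdp1 held in every alternative run that tested them, and Tdp1 was not tested under the stricter filter; with 1 library left out the adjusted p was 2.13e-05 to 0.000148 for Top1mt and 0.00129 to 0.0140 for Tdp1 against saline. With all 15 libraries 1170 genes changed after cisplatin, 720 without cisplatin 3 and 720 to 1241 over the fits with 1 library left out. For doxorubicin against saline the count was 3335, and 2795 to 3461 with 1 library left out; against cisplatin it was 2151, and 1734 to 2706. Members called with 1 library left out numbered 0 after cisplatin and 2 to 3 in each comparison with doxorubicin, and Top2a was called in 0 fits. With replicate numbers as a replicate block, and the unnumbered library left out, 2168 genes changed for doxorubicin against saline, 1262 for doxorubicin against cisplatin and 792 for cisplatin against saline. Deviations of same-numbered libraries correlated by -0.55 to 0.33 over 13 pairs, 2 of them above 0.1. These few correlations cannot settle whether the numbers mark a shared step. Under the block Top2b for doxorubicin against cisplatin was -0.27 (adjusted p = 0.137) and no longer called. For doxorubicin against saline 0 of the Top3 partners were called under the block, in place of 4.

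Signs changed only in uncalled differences. Top1mt was -0.05 for cisplatin against saline without cisplatin 4 (-0.05 to 0.08 over the fits with 1 library left out), and Top3b 0.06 there without saline 2 (-0.15 to 0.06), also with the unnumbered library left out. Top2a against saline after doxorubicin was -0.01 with the block, without saline 3, without saline 4 and without the unnumbered library, and -0.02 without doxorubicin 2 (-0.02 to 0.03). Top3a was 0.02 for doxorubicin against saline without saline 2 and the unnumbered library. Against cisplatin it was -0.02 without cisplatin 2, -0.03 without cisplatin 5 and -0.02 without doxorubicin 3 (-0.03 to 0.08). The cause was not tested. The split of changed genes depended on scaling: for doxorubicin against saline 1520 rose and 1815 fell, 1808 and 1653 with median-ratio scaling, and 1478 and 2113 as TPM. Depth limits Top2a most, where 1 read in 1 kb is worth 0.0197 to 0.0396 FPKM.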
